A study of Danio rerio with 12 samples.

Results

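Adult zebrafish kidneys fell into 2 widely separated ranges of ddc, the gene for aromatic L-amino acid decarboxylase. Of the 12 kidney libraries of the study, the 6 with ddc at or above 1000 CPM (counts-per-million of the library total) are called high ddc, and the 6 under it low ddc. The libraries were thus chosen by their measured level of ddc. The high range held 1 wild-type library (replicate 2) and 5 libraries from fish heterozygous for a pdx1 mutation (replicates 1, 3, 4, 6 and 9). The low range held 2 wild-type libraries (replicates 1 and 3) and 4 heterozygous ones (replicates 2, 5, 7 and 8). The labels describe whole kidneys of adult fish, wild type or pdx1 heterozygous, and name no treatment and no other allele. They are silent on sex, age, family, pooling and batch, and do not say whether a sample is 1 fish, so the p-values measure only the spread between these samples. The pdx1 gene encodes a homeobox factor of pancreas development, and the study set the 2 genotypes against each other. Here genotype is only a covariate.

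The enzyme encoded by ddc forms dopamine from L-DOPA and serotonin from 5-hydroxytryptophan, and in mammals it is abundant in the proximal tubule of the kidney as well as in neurons. The gene cyp7a1, the other marker of the ranges, encodes the cytochrome P450 that starts bile acid synthesis from cholesterol, a step known mainly from liver. The fish kidney holds nephrons, blood-forming tissue and steroid-producing interrenal cells side by side. Its bulk RNA is a mixture, and fewer cells of a type cannot be told apart from less RNA per cell.

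Levels of ddc by library total were 4175, 4926, 5282, 5390, 6391 and 6599 CPM in the high libraries. They were 116, 120, 135, 138, 203 and 203 CPM in the low libraries. No library lay between 203 and 4175 CPM, so the limit of 1000 could move far without changing the members. With library sizes scaled by TMM (trimmed mean of M values, used for CPM from here on), ddc stood at 5442 ± 869 CPM (SD, n = 6) in the high range and 154 ± 44.0 CPM (SD, n = 6) in the low range. The ratio of these means was 35.4. Since ddc chose the libraries, these values describe the choice and carry no test.

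The separation of cyp7a1 was wider still. Its level ran from 201 to 524 CPM in the high libraries, with a median of 232, and from 0.0521 to 0.378 CPM in the low libraries, with a median of 0.301. In counts, each high library held between 3643 and 9224 and each low library between 1 and 7, or 27 over the 6 low libraries together. In TPM (transcripts-per-million, scaled by length by the authors), cyp7a1 ran from 140 to 374 in the high range and from 0.0331 to 0.269 in the low range, and ddc from 1245 to 2086 and from 33.9 to 68.3. The gene was named with ddc as a marker of the ranges, so it too is given without a test.

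**Figure D1:**
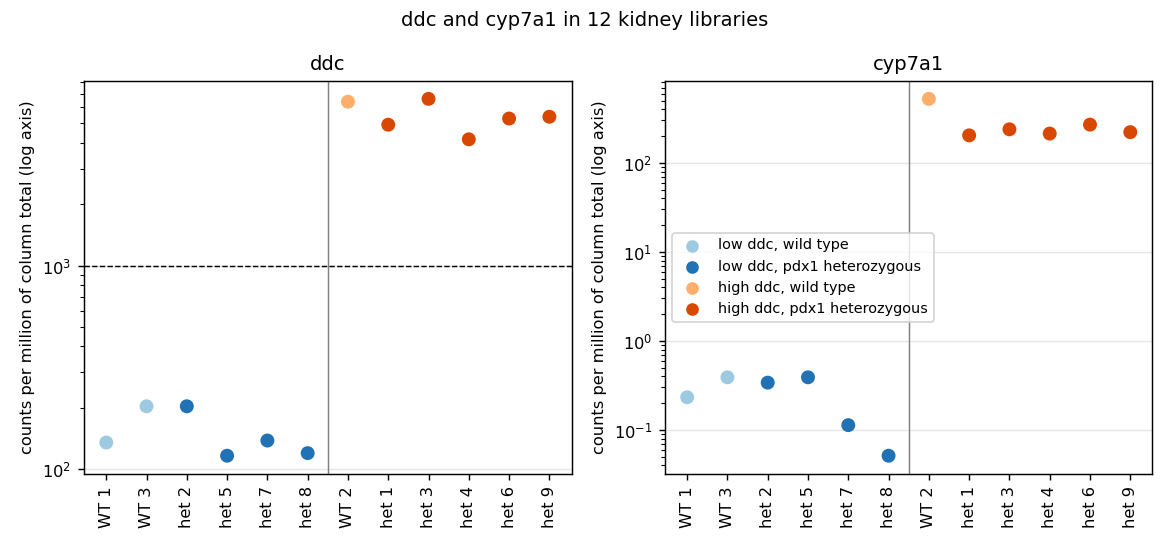
CPM by library total of ddc (left) and cyp7a1 (right) on log axes, 1 point per library, low ddc libraries left of the grey line and high ddc libraries right of it; the dashed line marks 1000 CPM. For ddc the low libraries reach at most 203 CPM and the high ones start at 4175 CPM, and for cyp7a1 the low libraries hold 7 counts or fewer.

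Library totals were between 1.60e+07 and 1.95e+07 estimated counts. The libraries held transcripts of proximal tubule (lrp2a, 927 to 1789 CPM over the 12 libraries), distal tubule (slc12a1, 303 to 517 CPM) and red cells (hbaa1, 1115 to 10010 CPM). Some libraries stood apart in single genes. In heterozygous replicate 2 (low ddc) klf2a, a flow-responsive Krüppel-like factor gene, stood at 107980 CPM and took 9.98% of all counts, against 1227 to 2128 CPM elsewhere. In heterozygous replicate 4 (high ddc) the hemopexin gene hpxa stood at 210 CPM, against at most 0.724 CPM in the others. In wild-type replicate 2 (high ddc) stc1l, a stanniocalcin gene, stood at 0.341 CPM, against 410 to 2870 CPM elsewhere. Mitochondrially encoded mRNA took 5.96% ± 0.739 of counts in the high range (SD, n = 6) and 4.97% ± 0.786 in the low range (SD, n = 6; exact permutation test, two-sided p = 0.0455, adjusted over 5 library measures p = 0.227). In the heterozygous libraries alone it took 5.67% ± 0.262 (SD, n = 5) against 4.62% ± 0.575 (SD, n = 4; exact permutation p = 0.00794, the smallest possible, adjusted p = 0.0397). Ribosomal RNA (7.64% against 6.49%), globin RNA (1.05% against 1.52%), total counts and the number of genes detected had adjusted p = 0.288 in the same exact test over 12 libraries. The part of these measures in the gene differences was not tested beyond the fit with the ribosomal RNA share given next.

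Many genes went along with ddc. Of 23730 genes tested, 701 (2.95%) passed an adjusted p of 0.05 in edgeR's quasi-likelihood test with genotype as covariate and Benjamini-Hochberg adjustment, with ddc and cyp7a1 left out of all counts. Higher with high ddc were 502 (2.12%) and lower 199 (0.839%), and the median log2 fold change over all genes tested was -0.01. Differences of at least 2-fold were found for 248 of the higher and 70 of the lower genes, and of at least 4-fold for 102 and 30. The CPM ranges of the 6 high and 6 low libraries did not overlap for 624 genes (2.63%), of which 466 were also called. Since the ranges were set from ddc, the test orders genes by how they follow ddc and says nothing of a treatment. DESeq2 called 1461 genes on the same design, 881 higher and 580 lower, and edgeR called 329 with the ribosomal RNA share as a further covariate. The count also depended on single libraries: it was 341 without wild-type replicate 2, the only wild-type library in the high range, 418 without heterozygous replicate 5, and 1667 without heterozygous replicate 2, the library with the klf2a excess.

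The naming rule took 15 higher genes, of which grm8b, mao and acox3 had the lowest p. All 15 were higher in each high ddc library than in any low ddc library, a property the rule required. For mao, the single zebrafish monoamine oxidase gene, whose enzyme degrades dopamine and serotonin, the high libraries ran from 1009 to 2148 CPM with a median of 1172. The low libraries ran from 81.0 to 163 CPM with a median of 122. High exceeded low ddc by a log2 fold change of 3.42 ± 0.18 (edgeR, adjusted p = 3.14e-07; standard errors are approximate), so that product-forming ddc and product-degrading mao were high in the same 6 libraries. For grm8b, a metabotropic glutamate receptor gene, the range was 11.4 to 25.9 CPM (median 17.9) against 0.0540 to 0.245 CPM (median 0.109). With 14 counts in the 6 low libraries together, it was close to undetected there, and the fitted log2 difference reached 7.09 ± 0.35 (adjusted p by edgeR = 2.21e-07). A kainate-type glutamate receptor gene, grik1a, ran from 21.5 to 114 CPM against 1.29 to 2.70 CPM (log2 fold change 4.69 ± 0.32; edgeR, adjusted p = 7.14e-06).

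Among the metabolic genes, acox3, a peroxisomal acyl-CoA oxidase of branched-chain fatty acids, ran from 349 to 705 CPM (median 400) in the high range and from 68.6 to 141 CPM (median 91.1) in the low range. The log2 fold change came to 2.35 ± 0.12 (edgeR, adjusted p = 3.27e-07). The fatty aldehyde dehydrogenase gene aldh3a2b and the allantoicase gene allc, which acts in purine breakdown, had log2 fold changes of 2.14 ± 0.16 and 4.26 ± 0.27 (edgeR, adjusted p = 7.44e-06 and 1.63e-06). For fdx1, the ferredoxin that passes electrons to mitochondrial cytochromes P450, levels were 81.5 to 289 CPM against 17.96 to 20.9 CPM, so the low libraries lay within a narrow band and the high ones were spread widely. This gave a log2 fold change of 3.06 ± 0.22 (edgeR, adjusted p = 8.72e-06). The mitofusin gene mfn2, which acts in mitochondrial fusion, had a smaller difference, at 278 to 443 CPM against 114 to 159 CPM (log2 fold change 1.31 ± 0.09). The cAMP phosphodiesterase gene pde8b had a log2 fold change of 2.12 ± 0.15. The others were gramd2aa, lrrc4ba, ankfn1a and znf385c, with log2 fold changes of 2.69, 3.45, 2.98 and 3.30, and slc51a and hsd17b3, which are described with their pathways.

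The leading lower genes included a fatty acid synthase and a clotting factor gene, both with low but detected levels in high ddc kidneys. For fasn2, a fatty acid synthase gene, the high libraries ran from 0.551 to 2.38 CPM (median 0.908) and the low libraries from 45.2 to 124 CPM (median 99.9). The fitted log2 fold change reached -6.36 ± 0.33 (edgeR, adjusted p = 4.86e-07). Another fatty acid synthase gene, fasn, went the other way. It was called higher in the heterozygous libraries alone, with a log2 fold change of 0.86. For f13a1a.1, a gene of the A subunit of coagulation factor XIII, the high libraries ran from 2.15 to 4.57 CPM (median 3.48) and the low libraries from 223 to 834 CPM (median 391). On the log2 scale the difference was -6.98 ± 0.38 (edgeR, adjusted p = 1.50e-06). Its neighbour in name, f13a1a.2, followed at 0 to 0.5676 CPM against 6.90 to 31.5 CPM (log2 fold change -5.83 ± 0.67), and f13a1b, the third such gene, at 36.7 to 56.7 CPM against 67.5 to 97.5 CPM (log2 fold change -0.80 ± 0.13; edgeR, adjusted p = 0.00531). The 3 genes are near copies of each other in name and family, and how the quantification shared reads between them is not known.

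Of the remaining lower genes, eevs, which in fish takes part in making the sunscreen compound gadusol, ran from 0 to 0.551 CPM in the high libraries and from 2.33 to 35.6 CPM in the low ones. The log2 difference was -5.995 ± 0.79 (edgeR, adjusted p = 0.00192), and eevs was not called by limma-voom (adjusted p = 0.142). The glucuronosyltransferase gene ugt5g1 ran from 5.53 to 14.1 CPM against 64.2 to 194 CPM (log2 fold change -3.69 ± 0.29), and slc22a16, in mammals a carnitine transporter, from 0.341 to 1.41 CPM against 7.96 to 11.5 CPM (log2 fold change -3.45 ± 0.25). Smaller differences were found for the translation repressor gene eif4ebp3 (log2 fold change -2.11 ± 0.26), the annexin gene anxa2a (-1.30 ± 0.19), hpgd, whose enzyme inactivates prostaglandins (-1.24 ± 0.20), msraa, a methionine sulfoxide reductase gene (-0.81 ± 0.12), the Myc gene myca (-0.77 ± 0.12) and gpcpd1, a glycerophosphodiesterase gene (-0.58 ± 0.09). The rule also took arl3l2, kbtbd11 and mmrn2a, with log2 fold changes of -1.53, -1.07 and -0.55. The edgeR adjusted p of the 15 reached at most 0.00473. All 30 leading genes were also called by DESeq2, in the heterozygous libraries alone and in each of the 12 fits that left out 1 library. In limma-voom 29 were called, and 25 with the replicate number as a block. The ddc difference of that block fit rests only on the replicate numbers present in both genotypes. The 30 were chosen by low p and separation in these same libraries, so none of these fits is independent of the choice.

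**Figure D2:**
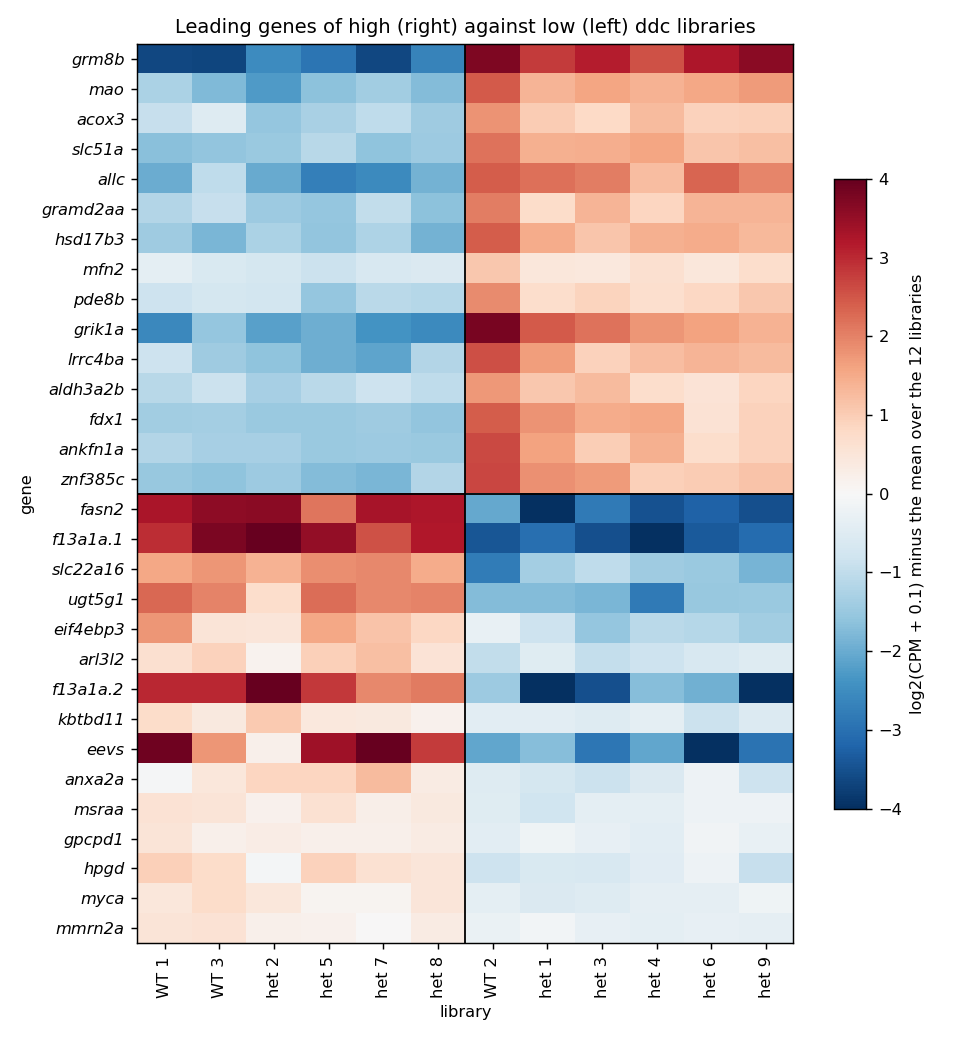
Heat map of log2(CPM + 0.1) minus each gene's mean over the 12 libraries, for the 15 higher (top) and 15 lower (bottom) genes of the naming rule, with low ddc libraries left and high ddc libraries right of the vertical line (WT, wild type; het, pdx1 heterozygous). Every gene shown is separated between the ranges by the naming rule, and wild-type replicate 2 carries the highest level of many of the upper genes, such as mao at 2148 CPM.

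The pattern found in heterozygous kidneys was also read in wild-type kidneys. With the 9 heterozygous libraries alone, 5 high and 4 low, edgeR called 291 genes (1.23%), 217 higher and 74 lower, of which 272 were among the 701. These genes were chosen without the wild-type libraries. In wild type, replicate 2 lay above both replicates 1 and 3 for 206 of the 217 higher genes (94.9%) and below both for 5. Over all genes tested, replicate 2 lay above both for 35.6%. Of the 74 lower genes it lay below both for 55 (74.3%) and above both for 5, against 36.03% of all genes tested. The median difference in wild type on the log2(CPM + 0.5) scale was 1.73 for the higher genes and -0.73 for the lower genes. With 1 wild-type library in the high range, this comparison has no replicate. The interaction of range and genotype was fitted too, but it rests on the same 1 wild-type library. A count of genes passing in that fit is therefore no evidence on genotype, and the fit cannot show whether the genotypes differ.

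**Figure D3:**
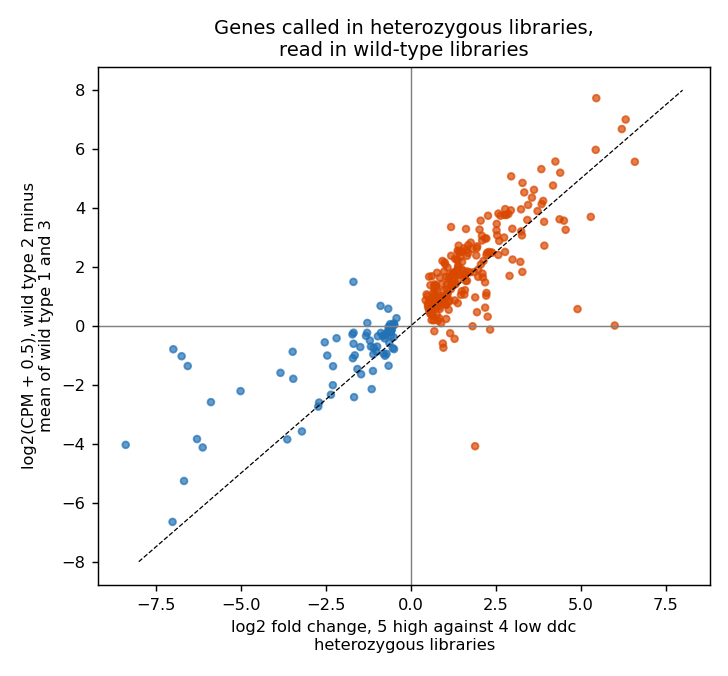
Each point is 1 of the 291 genes called in the 9 heterozygous libraries, with its log2 fold change there (x axis) and the difference between wild-type replicate 2 and the mean of wild-type replicates 1 and 3 on the log2(CPM + 0.5) scale (y axis); the dashed line marks equal values. Most of the 217 higher genes (orange) lie above 0 on the y axis, with a median of 1.73, and the 74 lower genes (blue) mostly lie below 0, with a median of -0.73.

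Genes of aromatic amino acid and monoamine metabolism, the pathway of ddc, held 8 higher and 1 lower call among 53 tested members. This was 16.98%, against 2.95% of all genes tested, with a median log2 fold change of 0.21. Phenylalanine hydroxylase, pah, which makes tyrosine, ran from 201 to 413 CPM against 90.2 to 193 CPM (log2 fold change 1.16 ± 0.18; edgeR, adjusted p = 0.00368). In the kynurenine route of tryptophan breakdown, kynu ran from 95.8 to 137 CPM against 24.6 to 53.8 CPM (log2 fold change 1.45 ± 0.16; edgeR, adjusted p = 0.000193), kmo had a log2 fold change of 1.204 ± 0.15 and haao of 0.46 ± 0.11 (edgeR, adjusted p = 0.000522 and 0.0441). The melatonin-pathway enzyme gene aanat2 was higher at low levels, 1.60 to 12.4 CPM against 0.641 to 1.53 CPM (log2 fold change 2.40 ± 0.42; edgeR, adjusted p = 0.00767). Amino acid transporter genes slc3a2a and slc7a9 had log2 fold changes of 0.61 ± 0.07 and 1.02 ± 0.17 (edgeR, adjusted p = 0.000516 and 0.00573), and gstz1, of tyrosine breakdown, was lower at -0.89 ± 0.19 (adjusted p = 0.0274). The list held 5 calls in the heterozygous libraries alone and 14 without heterozygous replicate 2. Over all genes tested these fits called 291 and 1667.

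The genes th and tph1b, whose enzymes act before ddc, and dbh and slc18a2, whose products act after it, did not pass the test. The genes mao and aanat2, given above, did pass. Tyrosine hydroxylase, th, ran from 34.4 to 75.1 CPM in the high libraries and from 47.5 to 92.3 CPM in the low ones, so the ranges overlapped (log2 fold change -0.24 ± 0.20; edgeR, adjusted p = 0.578). For dbh, which makes noradrenaline, the log2 fold change was 0.43 ± 0.48 (adjusted p = 0.709), and for slc18a2, the vesicular monoamine transporter, -0.32 ± 0.43 (adjusted p = 0.766). The tryptophan hydroxylase gene tph1b stayed at or under 0.815 CPM except for 5.22 CPM in wild-type replicate 2, and had a log2 fold change of 1.88 ± 0.51 (adjusted p = 0.0722). The noradrenaline transporter gene slc6a2, named after its values were seen, was higher, at 149 to 350 CPM against 55.0 to 81.3 CPM (log2 fold change 1.54 ± 0.15; edgeR, adjusted p = 0.000104).

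Of 52 tested genes of bile acid and cholesterol metabolism, the pathway of cyp7a1, 3 were higher and 0 lower (5.77%, against 2.95% of all genes tested; median log2 fold change 0.13). For slc51a, a subunit of the organic solute transporter that exports bile acids from epithelial cells, the high libraries ran from 77.7 to 165 CPM (median 98.2) and the low libraries from 11.3 to 16.7 CPM (median 12.4), with a log2 fold change of 3.03 ± 0.18 (edgeR, adjusted p = 8.50e-07). The bile salt export pump gene abcb11a ran from 108 to 254 CPM against 37.4 to 72.3 CPM (log2 fold change 1.51 ± 0.17; adjusted p = 0.000304). For cyp8b1.3, a sterol 12-alpha-hydroxylase gene, levels were low in both ranges, 0.172 to 2.57 CPM against 0.113 to 0.270 CPM, and the ranges overlapped (log2 fold change 2.62 ± 0.62; edgeR, adjusted p = 0.0427). It was not called in the heterozygous libraries alone or by limma-voom (adjusted p = 0.191 and 0.163). Its close copy cyp8b1.2 had a log2 fold change of 1.70 ± 0.50 and did not pass (adjusted p = 0.0986). The cytochrome P450 gene cyp27a3, named after its values were seen, ran from 32.5 to 137 CPM against 2.40 to 8.03 CPM (log2 fold change 3.72 ± 0.36; edgeR, adjusted p = 0.000141).

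Fatty acid oxidation and PPAR target genes held 4 higher and 2 lower calls among 44 tested, or 13.6% (2.95% over all genes tested), with a median of 0.01. Beside acox3, the peroxisomal bifunctional enzyme gene ehhadh ran from 169 to 377 CPM against 49.0 to 108 CPM (log2 fold change 1.46 ± 0.16; edgeR, adjusted p = 0.000202). The lipid-sensing receptor gene pparab had a log2 fold change of 0.79 ± 0.13 and the uncoupling protein gene ucp2 of 1.06 ± 0.22 (edgeR, adjusted p = 0.00379 and 0.0247). Lower were the fatty acid uptake gene cd36, at -0.73 ± 0.15, and the fatty acid binding protein gene fabp4a, at -1.15 ± 0.26 (edgeR, adjusted p = 0.0236 and 0.0370). The list held 2 calls in the heterozygous libraries alone, and 3 with the ribosomal RNA covariate or without heterozygous replicate 1, heterozygous replicate 5 or wild-type replicate 3. Over all genes tested these fits called 291, 329, 522, 418 and 517 in the same order. In each of these fits 0 members were called lower.

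Of 65 tested genes of xenobiotic cytochromes P450 and conjugation, 3 were higher and 4 lower (10.8%, against 2.95% of all genes tested; median -0.05). The sulfotransferase gene sult2st1 ran from 293 to 857 CPM against 30.4 to 77.0 CPM (log2 fold change 2.89 ± 0.25; edgeR, adjusted p = 3.70e-05). The aryl hydrocarbon receptor gene ahr1a was spread widely within the high range, from 5.73 to 84.9 CPM, and lay between 0.214 and 0.565 CPM in the low range (log2 fold change 6.74 ± 0.78; edgeR, adjusted p = 0.000722). The quinone reductase gene nqo1 had a log2 fold change of 0.94 ± 0.22 (adjusted p = 0.0410). Lower were cyp2k6, cyp2k8 and cyp2k19 of the cytochrome P450 family 2, with log2 fold changes of -3.32, -0.45 and -1.36, and the export pump gene abcb4, with -0.53. The 7 calls became 11 without heterozygous replicate 2, 4 without heterozygous replicate 6 or 8, 3 without wild-type replicate 2 or heterozygous replicate 5 or 9, and 2 without heterozygous replicate 3. They became 4 in the heterozygous libraries alone and 2 with the ribosomal RNA covariate, where 291 and 329 of all genes tested were called. Over all genes tested, 1667 were called without heterozygous replicate 2 and 341 to 493 in the other fits named.

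Some of the largest differences lay in genes outside the lists, in families picked after their values were seen. For dio2, the deiodinase that activates thyroid hormone, the high libraries ran from 307 to 1127 CPM (median 507) and the low libraries from 3.85 to 19.1 CPM (median 7.22), with a log2 fold change of 6.05 ± 0.53 (edgeR, adjusted p = 9.68e-05). Of 13 tested organic anion transporter genes of the slco family, slco1f1, slco1f2, slco1f3 and slco1f4 were higher and slco2b1 lower. This was 38.5% called, against 2.95% of all genes tested. The most abundant, slco1f4, ran from 552 to 803 CPM against 73.7 to 212 CPM (log2 fold change 2.40 ± 0.26; edgeR, adjusted p = 0.000313), and the other 3 higher genes had log2 fold changes from 1.84 to 4.61. Of 14 acyl-CoA thioesterase genes (acot), 4 were higher and 0 lower (28.6%). Levels of acot17 ran from 420 to 1287 CPM against 11.3 to 73.7 CPM, and acot16, acot17, acot18 and acot14 had log2 fold changes of 5.55, 4.51, 3.05 and 2.07. The taurine transporter gene slc6a6a ran from 417 to 732 CPM against 48.9 to 184 CPM (log2 fold change 2.53 ± 0.21). Over all 389 tested solute carrier genes named slc, 26 were higher and 3 lower (7.46%, against 2.95% of all genes tested). Members of the slco1f and acot families resemble each other, and how reads were divided among them is not known.

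Tubule genes were among those called. Of 50 tested proximal tubule genes, 12 were higher and 2 lower (28.0%, against 2.95% of all genes tested; median log2 fold change 0.26). The transporter genes slc34a1b (phosphate), slc22a2 (organic cations) and slc4a4a (bicarbonate) had log2 fold changes of 1.68 ± 0.17, 0.78 ± 0.11 and 0.95 ± 0.20 (edgeR, adjusted p = 0.000141, 0.00209 and 0.0277). Levels of slc22a2 ran from 2397 to 2890 CPM in the high libraries and from 1072 to 2166 CPM in the low ones, without overlap. Nuclear factor genes of this segment were among the higher ones, with hnf1bb at 1.15 ± 0.17 and hnf4a at 0.65 ± 0.12 (edgeR, adjusted p = 0.00238 and 0.00890). The main endocytic receptor genes lrp2a and cubn did not pass (log2 fold changes 0.08 ± 0.16 and 0.30 ± 0.17; adjusted p = 0.864 and 0.413). The megalin copy lrp2b and the peptide transporter gene slc15a2 were lower, at -1.30 ± 0.27 and -0.80 ± 0.19 (adjusted p = 0.0216 and 0.0402). Without wild-type replicate 2 the list held 7 higher and 0 lower calls, in the heterozygous libraries alone 9 and 0, and with the ribosomal RNA covariate 8 and 1. Over all genes tested these fits called 253 higher and 88 lower, 217 and 74, and 260 and 69. The summed level of the list, 13979 to 17457 CPM in the high range and 10031 to 18094 CPM in the low range, overlapped.

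In the distal tubule and collecting duct list, 7 of 32 tested genes were higher and 0 lower (21.9%, against 2.95% of all genes tested). The median was 0.23, and all 7 encode regulators or channels rather than the main salt transporters. The homeobox gene irx3b ran from 80.4 to 160 CPM against 20.8 to 49.0 CPM (log2 fold change 1.62 ± 0.15; edgeR, adjusted p = 6.27e-05). Other transcription factor genes of the list that passed were emx2 (0.68 ± 0.13), irx1a (0.82 ± 0.17), pou3f3a (0.89 ± 0.19) and pou3f3b (0.99 ± 0.21), besides hnf1bb, which is also in the proximal list, and the magnesium channel gene trpm7 passed at 0.56 ± 0.11. The salt transporter genes slc12a1 and slc12a3 had log2 fold changes of 0.23 ± 0.14 and 0.31 ± 0.12 and did not pass (adjusted p = 0.462 and 0.195). With the ribosomal RNA share as covariate 2 members of this list were called, and 4 without wild-type replicate 2 or in the heterozygous libraries alone. Over all genes tested these fits called 329, 341 and 291. Of 46 multiciliated cell genes, 3 were higher and 0 lower (6.52%, against 2.95% of all genes tested), and 40 had positive values. The 3 were foxj1b, tekt3 and dnah9, with log2 fold changes of 1.12, 0.87 and 0.47. The list held 10 higher and 1 lower call without heterozygous replicate 2. It held 1 higher call without heterozygous replicate 5 or with the ribosomal RNA covariate. Over all genes tested, 879 were higher and 788 lower without heterozygous replicate 2. The other fits named called 315 and 260 higher. Of 23 podocyte genes 0 were called by edgeR, with a median of -0.10, and DESeq2 called 0 as well.

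Cell cycle, neutrophil and erythroid genes had mainly negative log2 fold changes. All 53 tested cell cycle genes had negative log2 fold changes, with a median of -0.81, under TMM, RLE and upper quartile scaling alike, while 0 passed in edgeR and 14 in DESeq2. Their summed level ran from 1379 to 2227 CPM in the high libraries. In the low libraries it was 1061 CPM in heterozygous replicate 2, the lowest of the 12, and 2459 to 4194 CPM in the other 5. Those 5 thus lay above all high libraries, and replicate 2 below them. Without heterozygous replicate 2, edgeR called 43 of the 53 lower, beside 788 lower among all 23730 genes tested in that fit. The proliferation marker gene mki67 ran from 116 to 202 CPM in the high libraries and stood at 102 CPM in heterozygous replicate 2 and at 208 to 453 CPM in the other low libraries (log2 fold change -0.90 ± 0.30; edgeR, adjusted p = 0.159).

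Of 30 tested neutrophil genes, 0 were higher and 6 lower (20%, against 2.95% of all genes tested). The median was -0.49, and 27 values were negative, as were 12182 of all 23730 genes tested. The summed level of the list did not overlap, at 2918 to 3870 CPM in the high and 4197 to 6066 CPM in the low libraries. The lysozyme gene lyz ran from 133 to 350 CPM against 195 to 814 CPM, so the ranges overlapped (log2 fold change -1.13 ± 0.21; edgeR, adjusted p = 0.0128). The genes lect2.1, npsn and cpa5, the last also a member of the exocrine pancreas list, had log2 fold changes of -1.003, -0.79 and -0.83, and the myeloperoxidase gene mpx, at -0.88 ± 0.23, did not pass (adjusted p = 0.0655). The number of lower neutrophil genes was 9 without heterozygous replicate 2, 3 without any 1 of heterozygous replicates 1, 4, 5, 6, 8 and 9, 3 in the heterozygous libraries alone and 2 with the ribosomal RNA covariate. Over all genes tested the lower genes in these fits were 788, 93 to 196, 74 and 69. Of 33 erythroid genes, 31 had negative values (median -0.48) and 0 were called in edgeR or in DESeq2. Their summed level ranged from 6092 to 27835 CPM in the high and from 7236 to 29322 CPM in the low libraries. Thrombocytes are the nucleated platelets of fish. In their list of 25 tested genes the 2 lower calls (8%, against 2.95% of all genes tested) were f13a1b and the myosin gene myh9a (-0.40 ± 0.09). This list held 1 call in most fits without 1 library, which called 341 to 1667 of all genes tested. DESeq2 called 1 higher and 2 lower. With the ribosomal RNA covariate, or without heterozygous replicate 2 or 5, it held 1 higher and 1 lower call. Over all genes tested these fits called 881 higher and 580 lower, 260 and 69, 879 and 788, and 315 and 103. Lists with 0 calls lay below the 2.95% called over all genes tested. So did 3 of the lists described here that held a single call. In the T and NK cell list, where 36 of 43 values were positive (median 0.28), tox was higher at 1.17 ± 0.23 (2.33%). In the endothelium list, where 36 of 49 values were negative (median -0.10), mrc1a was lower at -0.44 ± 0.10 (2.04%). In the stroma list 28 of 35 values were negative (median -0.24), while its 1 call, the leptin receptor gene lepr, was higher at 0.84 ± 0.19 (2.86%). Of 25 interrenal and chromaffin genes 0 were called by edgeR, with the steroid transport gene star at 44.6 to 333 CPM against 7.18 to 294 CPM.

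Of 31 tested hepatocyte genes, 4 were higher and 0 lower (12.9%, against 2.95% of all genes tested). The median log2 fold change was 1.55, and 0.12 without heterozygous replicate 4. The prothrombin gene f2 ran from 54.1 to 303 CPM in the high libraries and from 16.1 to 51.5 CPM in the low libraries, without overlap (log2 fold change 2.38 ± 0.25; edgeR, adjusted p = 0.000200). The apolipoprotein genes apoc1 and apoa2 had log2 fold changes of 3.91 ± 0.74 and 5.90 ± 1.32 (adjusted p = 0.0190 and 0.0424), and pah, given above, is also in this list. For apoc1 the high libraries ran from 11.3 to 164 CPM and the low ones from 1.23 to 6.47 CPM. For apoa2 the high libraries ran from 2.92 to 229 CPM, highest in heterozygous replicate 4, and overlapped with the low ones at 0.216 to 3.099 CPM. Neither was called in the heterozygous libraries alone (adjusted p = 0.128 for apoc1 and 0.201 for apoa2), and apoa2 was not called by limma-voom (adjusted p = 0.252). The defining liver markers were highest in 1 library. The fatty acid binding protein gene fabp10a stood at 79.4 CPM in heterozygous replicate 4 and at 36.5 CPM or less in the other 11 libraries, and the transferrin gene tfa at 495 CPM in replicate 4 and at 1.16 to 12.2 CPM elsewhere. The list's summed level was 4283 CPM in replicate 4, 740 to 1319 CPM in the other high libraries and 504 to 638 CPM in the low libraries. These sums include the called genes f2 and pah, the latter at 201 to 413 CPM against 90.2 to 193 CPM. They thus do not describe the other members. The list held 2 calls without wild-type replicate 2 or heterozygous replicate 8, and 1 in the heterozygous libraries alone. Over all genes tested these fits called 341, 481 and 291. Without heterozygous replicate 4, 4 members were called higher, and 17 of 31 rather than 26 had positive values. The part of liver RNA in the other calls was not tested.

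**Figure D4:**
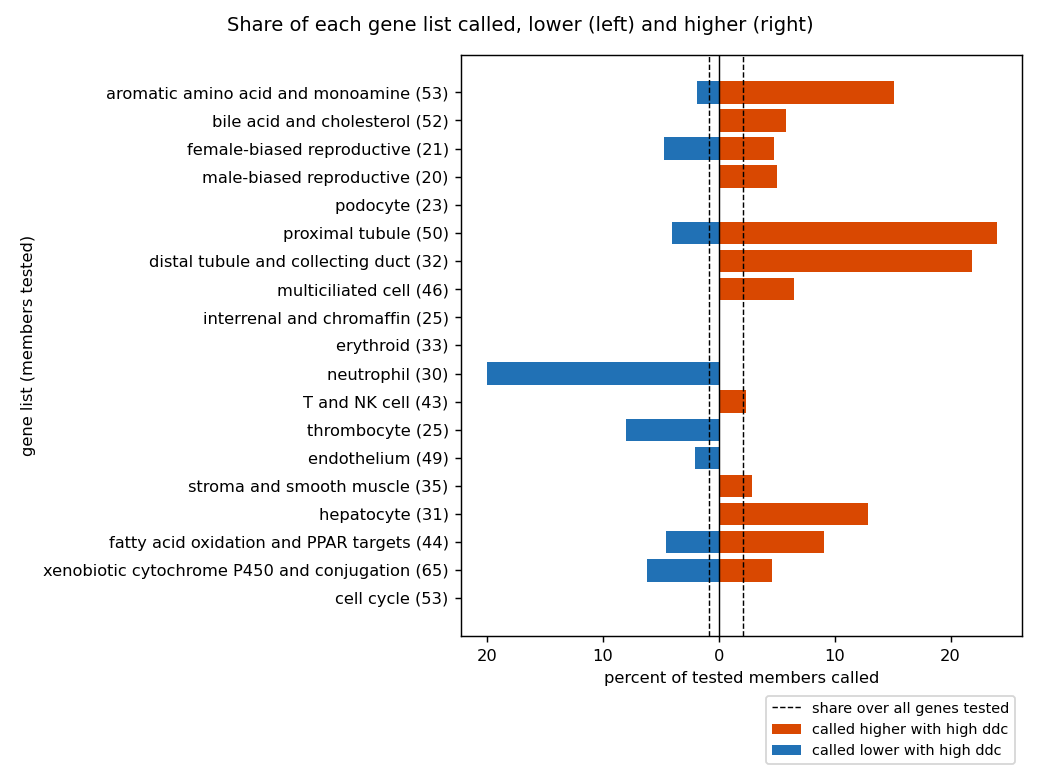
Percent of the tested members of each gene list called higher (orange, right) or lower (blue, left) with high ddc in edgeR, with the number tested in brackets; dashed lines mark the shares over all genes tested, 2.12% higher and 0.839% lower. Proximal tubule, distal tubule and aromatic amino acid lists reach furthest right, neutrophil genes furthest left, and the podocyte, interrenal, erythroid and cell cycle lists have 0 calls.

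Known sex-biased genes were read as a possible basis of the ranges. Vitellogenins are egg yolk precursors made in the liver under estrogen. Of 6 tested vitellogenin genes, vtg3 was called: it stood at 0 to 0.330 CPM in the high libraries (21 counts in all) and at 0.792 to 10.5 CPM in the low libraries (395 counts), without overlap (log2 fold change -4.18 ± 0.78; edgeR, adjusted p = 0.0137). This call was lost in the heterozygous libraries alone and in limma-voom (adjusted p = 0.0696 and 0.146). For vtg2 there were 0 counts in the 6 high libraries and 225 in the low ones, and for vtg4 there were 2 and 415. Most of these came from heterozygous replicate 5, with 9.72 CPM of vtg2 and 19.98 CPM of vtg4, and some low libraries held none, so neither passed (edgeR, adjusted p = 0.177 and 0.0566). The levels of vtg5 and vtg6 overlapped between the ranges, with log2 fold changes of -1.53 ± 0.61 and -3.99 ± 1.22, and vtg8 had the opposite sign at 1.04 ± 0.60 (adjusted p = 0.231, 0.122 and 0.418).

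Among steroid enzymes and receptors, hsd17b3, whose product is the dehydrogenase that forms testosterone in mammals, stood at 14.7 CPM or more in the high libraries (median 18.4) and from 1.72 to 2.77 CPM (median 2.32) in the low libraries. The fitted log2 difference was 3.18 ± 0.21 (edgeR, adjusted p = 2.42e-06), and no library of one range came near the other. The estrogen receptor gene esr2b was higher too, at 23.4 to 48.1 CPM against at most 22.0 CPM (log2 fold change 0.89 ± 0.15; edgeR, adjusted p = 0.00528), although it stands in the female-biased list. The other estrogen receptor genes esr1 and esr2a, the androgen receptor gene ar and the male-pathway genes dmrt1 and gsdf did not pass, with log2 fold changes of -0.07, 0.31, 0.05, -0.26 and -0.05 (adjusted p from 0.229 to 0.934). Gonad transcripts were near the limit of detection: the oocyte genes gdf9 and zp3b reached at most 0.107 and 0.980 CPM, and the germ cell genes ddx4 and sycp3 at most 0.489 and 0.551 CPM, where 3 counts correspond to between 0.156 and 0.184 CPM. In all, 1 of 20 tested genes of the male-biased list (5%) and 2 of 21 of the female-biased list (9.52%) were called, against 2.95% of all genes tested. In the male-biased list 18 values were positive and 2 negative (median 0.29), and in the female-biased list 9 were positive and 12 negative (median -0.10). Over all genes tested 11548 were positive and 12182 negative. The male-biased list's sum overlapped, at 305 to 756 CPM in high and 223 to 647 CPM in low libraries. Its next members by p after hsd17b3, cimap1b, ropn1l and tekt1, did not pass (edgeR, adjusted p = 0.104, 0.362 and 0.454). The female-biased list held 1 higher and 4 lower calls without heterozygous replicate 2, where 1667 of all genes tested were called. In the heterozygous libraries alone or with the ribosomal RNA covariate it held 1 higher and 0 lower (291 and 329 over all genes tested). Its median was -0.32 in the heterozygous libraries alone, -0.51 in limma-voom and 0.01 without heterozygous replicate 6. DESeq2 called 8 of the 41 genes tested in both lists, with 1 higher and 5 lower in the female-biased list. In the male-biased list it called 2 higher and 0 lower, beside 881 higher and 580 lower over all genes tested. The labels give no sex, these values give none to any sample, and the part of sex in the ranges was not tested.

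**Figure D5:**
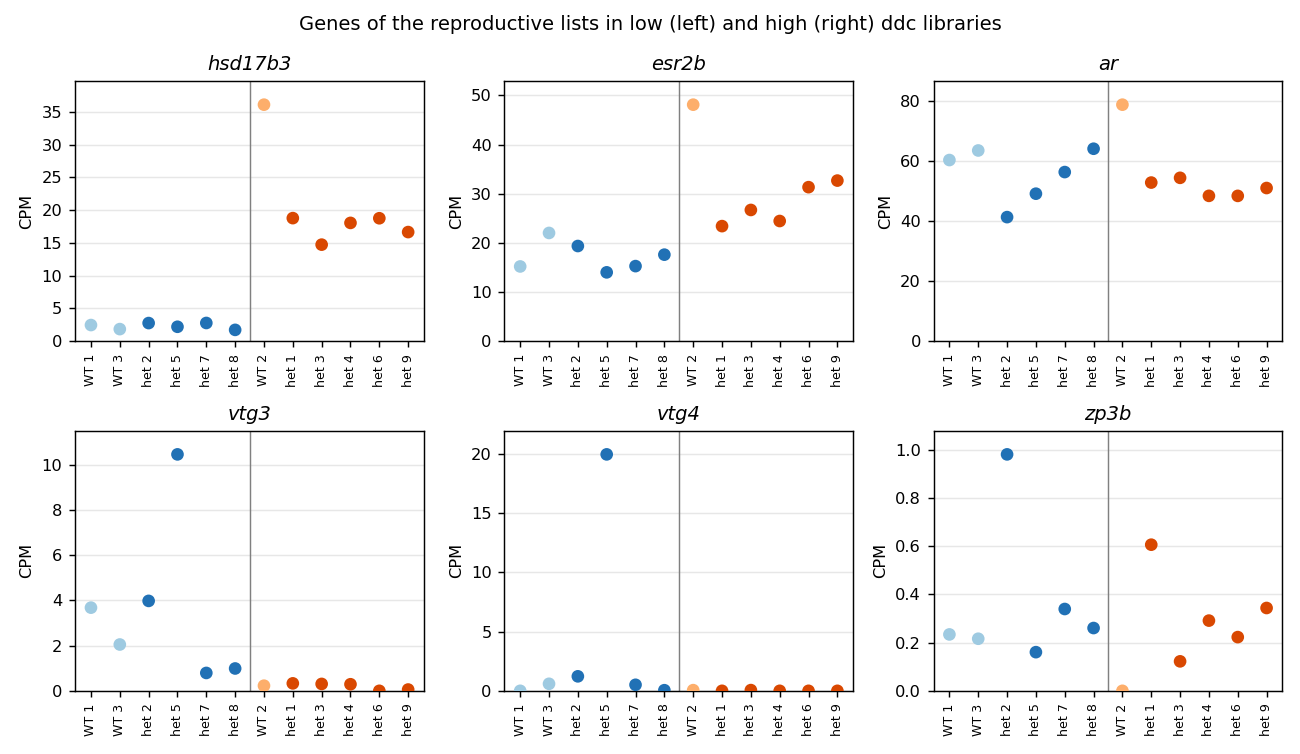
CPM of 6 genes of the reproductive lists, 1 point per library, low ddc libraries left and high ddc libraries right of the grey line, each panel with its own axis from 0. Levels of hsd17b3 separate the ranges (at most 2.77 CPM against at least 14.7 CPM), esr2b separates them narrowly, vtg3 and vtg4 are highest in heterozygous replicate 5, and ar and the oocyte gene zp3b overlap.

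Genes beside ddc and cyp7a1 in the genome were read for a local difference. Of the 50 tested genes on each side of ddc in the RefSeq gene order, 1 of 100 was called, gask1a, lower. Beside cyp7a1 8 of 100 were called, 7 higher (agxtb, tox, dpydb, plcd1b, prg4a, zgc:161973 and xirp1) and 1 lower (arpc5a), against 2.95% of all genes tested. This count was 9 for both windows together, 16 in DESeq2, 5 in the heterozygous libraries alone and 1 with the ribosomal RNA covariate. Over all genes tested these fits called 701, 1461, 291 and 329.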

How the data were processed

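Total RNA of 12 adult zebrafish kidney samples was sequenced, with 2 values per gene deposited for each sample. Per the submitters' processing notes, the tools were Trim Galore 0.6.4 and kallisto, whose version is listed as 0.4.6, with build GRCz11. Strand use, settings and annotation are not given in the sources used here. Per gene ID, the deposited estimated counts were not normalized by the authors. The deposited TPM values were scaled by the authors for length and library size and served in alternatives. Reads that match more than 1 transcript are shared out by kallisto, which makes the levels of near-identical copies uncertain. A RefSeq table of another assembly, GRCz12tu, named 25812 of 30238 IDs. Its chromosomes and start positions served only for the gene order and to pick the mitochondrial genes.

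Members and gene lists were chosen with earlier results of these data known. Estimated counts were rounded and analysed in R 4.3.3 with edgeR 4.0.16: filterByExpr with a minimum count of 10, TMM scaling, and a quasi-likelihood F test of the ddc range with genotype as covariate. Benjamini-Hochberg adjustment ran over all genes tested, with a threshold of 0.05. The approximate standard error is the size of the log2 fold change over the root of its F statistic. Library measures were compared by exact two-sided permutation of all 924 divisions into 6 and 6. Alternatives used DESeq2 1.42.0 and limma 3.58.1. Simulated counts with known changes were used to test the edgeR fit. That simulation drew each gene independently and held no outlying library, so it is no measure of error in these calls. Totals between 1.60e+07 and 1.95e+07 counts limit precision, and the floor of 3 counts covers counting error only.

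Named genes were up to 15 per direction taken in order of p among the genes called. They needed a mean of 2 CPM or more, a gene symbol other than a clone or accession number, and ranges that did not overlap. Each list described added its 4 lowest members by p. In all, 36 lists with 1206 tested genes were read. Replicate numbers were not taken to pair samples. Some genes of the lists are not reported here by name.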

Additional observations from a re-analysis of the deposited data

Results flagged for a closer look

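Within the 6 high or 6 low ddc libraries, 20 of 74 groups of values had 1 library farther from its nearest neighbour than Dixon's 95% limit allows. Chance gives about 1 in 20 groups where groups are independent and not selected. The groups here included leading genes chosen in these same libraries, and genes that vary together are not independent. The number of flags is thus a description and no test. Wild-type replicate 2, the only wild-type library in the high range, accounted for 12 of the 20 flagged groups, each time as the highest of the high range. Its values were 2148 CPM for mao (others at most 1282), 165 CPM for slc51a (others at most 108), 126 CPM for gramd2aa, 36.097 CPM for hsd17b3, 443 CPM for mfn2, 389 CPM for pde8b, 114 CPM for grik1a, 8.40 CPM for lrrc4ba, 44.0 CPM for ankfn1a and 30.1 CPM for znf385c. It also had 524 CPM of cyp7a1 (others at most 254) and the highest share of mitochondrial mRNA in this range, 7.39% (others at most 5.99%).

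The other 8 were spread over 6 libraries. Heterozygous replicate 2 had 64.2 CPM of ugt5g1, the lowest of the low range (others at least 149), and 31.5 CPM of f13a1a.2, the highest (others at most 14.8). Heterozygous replicate 5 had 45.2 CPM of fasn2, the lowest of the low range, and 16.7 CPM of slc51a, the highest. In the high range ugt5g1 was lowest in heterozygous replicate 4, at 5.53 CPM, and kbtbd11 in heterozygous replicate 6, at 13.4 CPM. In the low range allc was highest in wild-type replicate 3, at 2.16 CPM, and the total count in heterozygous replicate 8, at 19.484 (in units of 1e+06 counts). The part of genotype in the values of wild-type replicate 2 cannot be told apart from that of the single library.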

How the results depend on the processing

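The count of 701 genes moved by over 1.5 times in DESeq2 (1461), in the heterozygous libraries alone (291), with the ribosomal RNA share as covariate (329), at an adjusted p under 0.01 (269) and with a log2 fold change of at least 1 as well (318). It was 693 with RLE scaling, 696 with upper quartile scaling, 629 with no filter, 689 with a mean CPM of at least 1, 651 in limma-voom, 616 in limma-trend on log2(TPM + 1), 610 with a pseudocount of 0.1, 686 without the genotype covariate and 752 with ddc as a continuous covariate. Leaving out 1 library at a time gave 341 to 1667 genes. Leaving out heterozygous replicates 2 and 4 together, a choice made after seeing the data, gave 1919 genes, of which 661 were among the 701. The causes of these shifts were not tested. Over the union of the gene lists the count in the same order of DESeq2, heterozygous alone, ribosomal RNA, adjusted p under 0.01 and at least 2-fold was 153, 39, 36, 28 and 35, it was 190 without replicates 2 and 4, and 41 to 172 without 1 library. The reproductive genes called were 8 in DESeq2, 5 without replicates 2 and 4, and 3 to 6 without 1 library. The neighbours of ddc and cyp7a1 called were 16, 5, 1, 0 and 5 in that order and 2 to 15 without 1 library. For the interaction, DESeq2 called 46 genes. This interaction count was not reproduced by edgeR. It rests on 1 wild-type library in the high range, so it cannot show whether the genotypes differ. The mitochondrial share differed by 1.05 percentage points in the heterozygous libraries alone (exact permutation, adjusted p = 0.0397) and by 0.699 to 1.24 without 1 library. With the replicate number as a block, 514 genes were called, of which 243 were among the 701, and 3 neighbours. Heterozygous libraries whose number no wild-type library shares stand alone in their block and add nothing to the ddc difference. The difference in that fit thus rests on the libraries numbered 1 to 3, too few to judge the calls by. Correlations of same-numbered samples were -0.22, -0.16 and 0.10 for numbers 1 to 3 about the genotype means, and -0.08, 0.06 and 0.30 once the ddc range was fitted as well. They were not above 0.1 for every number in either form. Of the 30 leading genes 25 passed in the block fit (arl3l2, gpcpd1, hpgd, mmrn2a and myca did not), 29 in limma-voom (eevs did not), and all 30 with RLE scaling. Promoter sequences were not analysed here. Genes at a few counts per library, such as the vitellogenins, are limited by depth.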
